A study of Sus scrofa with 29 samples.

Results

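The inner lining of the internal mammary artery was compared between exercise-trained and sedentary pigs. These were the 15 arrays whose titles name this artery, 8 from exercised and 7 from sedentary pigs, of 29 arrays in the series. The other 14 arrays came from the brachial artery, a forelimb vessel, and 14 of the 15 pigs gave both arteries. By the titles exercised pig 12_2 gave the internal mammary artery only, while the study's design text has the unpaired pig with a brachial array only; the titles were followed. Exercised pigs ran on a treadmill for 16 to 20 weeks, 85 minutes a day on 5 days a week, and were sampled about 24 hours after the last bout. Sedentary pigs were kept in their enclosures. RNA came from the luminal surface, which was scraped off into a lysis reagent, so the samples were enriched for endothelium and were not pure. The array title put each sample in its group, because a second label of the 8 exercised samples reads sedentary. No breed, sex or age is given in the sources used here. Each array is 1 pig, and the p-values measure the spread between pigs.

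The endothelium is the cell layer between blood and vessel wall. It rests on a basement membrane, releases vasoactive and clotting factors, and answers to the shear stress that flowing blood puts on it. Training raises blood flow in bouts. The internal mammary artery is known for resisting atherosclerosis, and it lies outside the working limbs.

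Values are log2 probe-set intensities, and a difference of 1 on this scale is a change of 2-fold. The 15 arrays had medians of 7.19 to 7.28 and correlated with each other at 0.972 to 0.995. Endothelial markers were high in both groups: PECAM1, a junction protein, averaged 14.04 in exercised and 13.96 in sedentary pigs, and CDH5, VE-cadherin, 12.34 and 12.46. Smooth muscle markers were also high, with ACTA2 at 13.65 and 13.82, so the scrapings held medial cells as well. The lymphatic marker LYVE1 was low, at 5.23 and 5.18, as was the adipocyte marker ADIPOQ, at 4.41 and 4.46. The mean of 12 adipocyte markers was higher, at 6.61 to 6.84 in exercised and 6.66 to 6.83 in sedentary pigs. The mean of 9 fibroblast and adventitia markers was 9.41 to 10.05 and 9.68 to 10.12, and that of 11 macrophage markers 8.23 to 9.01 and 8.35 to 9.20. In such mixed samples, fewer cells of a type and less RNA per cell cannot be told apart.

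The 28S/18S ribosomal RNA ratio, a measure of RNA integrity, differed between the groups. It ran from 1.25 to 1.47 in exercised pigs (1.33 ± 0.0841, SD, n = 8) and from 1.07 to 1.29 in sedentary pigs (1.19 ± 0.0763, SD, n = 7). The difference was 0.144 (exact permutation test, two-sided, p = 0.00544, or 0.0435 when adjusted for the 8 measures of this kind), and 8 of 8 exercised pigs lay above the sedentary mean. Within the 8 pigs sampled first it was 0.185, and within the 7 sampled last 0.0967. For the actin controls, the log2 gap from 3′ to 5′ probe sets, another such measure, was 0.162 smaller in exercised pigs (exact permutation p = 0.164, two-sided). The labels grade the RNA of exercised pigs B+ in 2 and B in 6, and that of sedentary pigs B in 6 and C in 1. The part of RNA integrity in the results below was examined only by adding the ratio, or the mean 3′ to 5′ gap of the controls, to the fit.

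Some sedentary arrays stood apart from the others. The first set was pigs 11_1, 13_2 and 15_1, in which VWF, the clotting glycoprotein that endothelium stores and secretes, was at 11.09, 12.06 and 11.16. The other 4 sedentary arrays were at 6.83 to 8.35 and the 8 exercised arrays at 6.05 to 7.52, so VWF, a defining endothelial marker, was low in 12 of 15 arrays. The brachial arrays of the same 3 pigs, at 8.11, 6.32 and 6.51, lay within the range of all 14 brachial arrays, these 3 included, 6.04 to 8.47. In some other genes that stood apart in the same way, the brachial arrays of pigs 13_2 and 15_1 were at or near the top of the brachial range. Examples were FST, at 6.97 in both, with a highest value of 6.97, and ANGPT2, at 8.82 and 8.32, with a highest value of 8.82. The brachial array of pig 11_1 was not, at 5.88 for FST and at 7.17, the lowest value, for ANGPT2. The other array to stand apart was pig 12_3, which had the highest mean level of chaperone genes, 11.44 against 11.02 in the next sedentary pig. All 4 arrays were singled out after their values were seen. The main results are also given without them, and so are some of the single genes whose value moved. A gene with no such value may have moved as well.

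With all 15 arrays, 13 of 23999 probe sets (0.0542%) differed between exercised and sedentary pigs at an adjusted p under 0.05 (limma, Benjamini-Hochberg over all probe sets). Of these, 10 rose with training (0.0417%) and 3 fell (0.0125%). A single gene symbol was listed for 5 of the 13: SERPINE2, SCG2, NID2 and TFF2 rose, and RBM17 fell. In 12 of the 13 the exercised and sedentary pigs did not overlap at all. Over all probe sets, 37 had every exercised pig above every sedentary pig (0.154%) and 32 had every exercised pig below (0.133%).

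SERPINE2, or protease nexin-1, is a secreted inhibitor of thrombin and plasminogen activators. Its level ran from 8.56 through a median of 9.41 to 9.80 in sedentary pigs and from 10.13 through 11.25 to 12.57 in exercised pigs. The lowest exercised pig was above the highest sedentary pig. SERPINE2 was 4.31-fold higher with training (log2 2.11 ± 0.29, SE, limma adjusted p = 0.0183). Without the 3 sedentary pigs of high VWF the difference was 1.96 (limma adjusted p = 0.127), and without pig 12_3 it was 2.02 (limma adjusted p = 0.0523).

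SCG2, or secretogranin II, is a granin, an acidic protein of dense-core secretory granules and the precursor of the peptide secretoneurin. It had the highest fold of the 5 named genes that passed, 6.32-fold (log2 2.66 ± 0.39, SE, limma adjusted p = 0.0189). Sedentary pigs lay at 4.53, 5.20 and 5.79 (lowest, median, highest) and exercised pigs at 6.48, 7.94 and 9.08. SCG2 was thus dim in sedentary pigs and brighter in every trained pig, with a wide spread among the trained. Without the 3 sedentary pigs of high VWF its difference was 2.98 (limma adjusted p = 0.0579), and without pig 12_3 it was 2.60 (limma adjusted p = 0.0559).

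NID2, nidogen-2, links laminin and collagen IV in the basement membrane. It had the smallest p of all probe sets. Sedentary pigs ranged from 10.34 to 10.92 with a median of 10.61, and exercised pigs from 11.10 to 11.38 with a median of 11.27. The trained pigs formed a narrow band just above the sedentary ones, 1.55-fold higher (log2 0.64 ± 0.08, SE, limma adjusted p = 0.0183). Of the 5 named genes only NID2 still passed without the 3 sedentary pigs of high VWF (0.64, limma adjusted p = 0.0279). Without pig 12_3 it did not (0.60, limma adjusted p = 0.0523).

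TFF2, trefoil factor 2, is a small secreted peptide best known from stomach mucus. It stood at 6.75, 7.14 and 7.34 in sedentary pigs and 7.48, 7.73 and 8.11 in exercised pigs, again lowest, median and highest. The groups did not overlap, and TFF2 was 1.61-fold higher with training (log2 0.69 ± 0.10, SE, limma adjusted p = 0.0206). Its difference was 0.57 without the 3 sedentary pigs of high VWF (limma adjusted p = 0.157) and 0.69 without pig 12_3 (limma adjusted p = 0.0559).

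RBM17, a splicing factor of the spliceosome, was the only named gene that fell past the threshold. Sedentary pigs lay between 9.78 and 9.92 (median 9.88) and exercised pigs between 9.57 and 9.68 (median 9.63). The change was small and the groups were tight and apart: RBM17 was 1.19-fold lower with training (log2 -0.25 ± 0.04, SE, limma adjusted p = 0.0364). It was -0.23 without the 3 sedentary pigs of high VWF (limma adjusted p = 0.188) and -0.24 without pig 12_3 (limma adjusted p = 0.0773).

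The 8 passing probe sets with no single gene symbol are given by probe-set ID only. Ssc.24638.1.S1_at rose by 1.52 ± 0.23 (SE), Ssc.4479.1.S1_at by 0.74 ± 0.11 and Ssc.4479.2.S1_at, of the same cluster name, by 0.71 ± 0.10. Ssc.22137.1.S1_at rose by 0.79 ± 0.13, Ssc.24261.2.S1_a_at by 0.41 ± 0.06 and Ssc.29231.1.A1_at by 0.84 ± 0.14, the last being the only passing probe set whose groups overlapped. Ssc.2033.1.S1_at fell by 1.21 ± 0.19 and Ssc.3766.1.S1_at by 0.40 ± 0.06. The adjusted p of these 8 lay between 0.0183 and 0.0342 (limma). Ssc.2033.1.S1_at had 2.32-fold lower levels with training, from 8.42 to 9.20 in sedentary pigs down to 6.58 to 8.27 in exercised pigs.

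**Figure D1:**
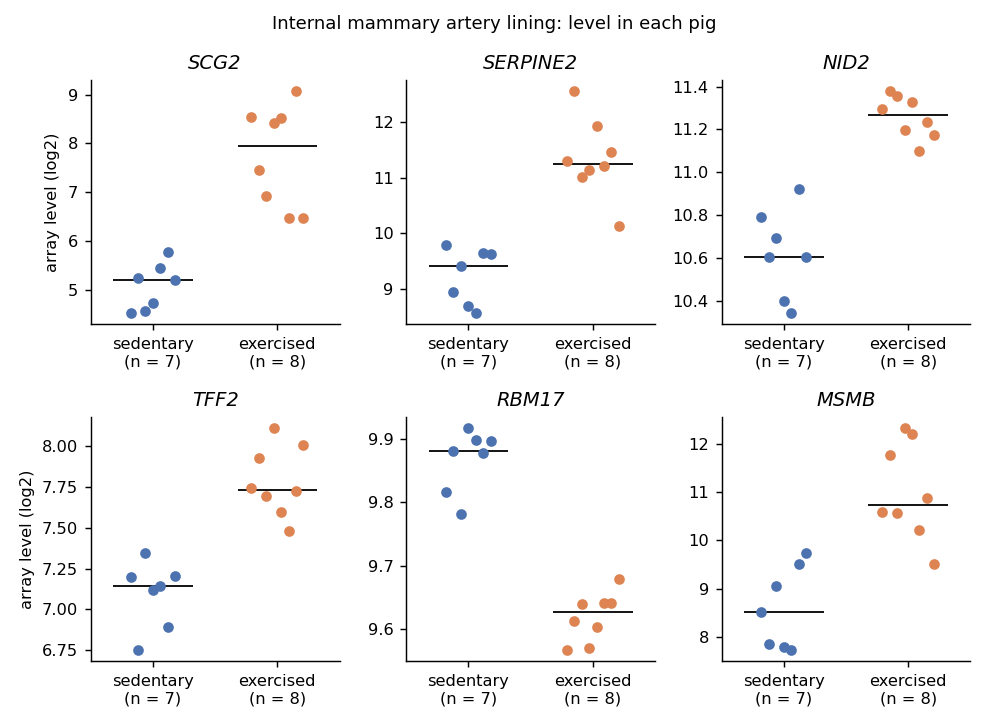
Log2 probe-set level of SCG2, SERPINE2, NID2, TFF2, RBM17 and MSMB in each pig (points), by group, with the group median as a bar. In the first 5 genes the 8 exercised and 7 sedentary pigs do not overlap, and in MSMB the lowest exercised pig, at 9.51, lies below the highest sedentary pig, at 9.73.

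The 13 calls depended on which pigs were included. All 13 probe sets kept their sign when any 1 pig was left out. In the 12 whose groups did not overlap, no such omission can turn the sign, so this was built in. The number passing ran from 0 without sedentary pig 12_3 to 67 without sedentary pig 10_2. Without pig 12_3 the smallest adjusted p was 0.0523 (limma), and 2725 probe sets still had an unadjusted p under 0.05. The count moved by more than 1.5 times on leaving out 8 of the 15 pigs: sedentary pigs 10_2 (67), 11_1 (24), 12_3 (0), 13_2 (5) and 15_1 (7), and exercised pigs 10_5 (7), 12_2 (21) and 14_3 (37). Without the 3 sedentary pigs of high VWF, 4 probe sets passed, all higher. These were NID2, Ssc.4479.1.S1_at and 2 outside the 13, 1 of them TMEM100, a membrane protein of endothelium (2.18, limma adjusted p = 0.0475). With all 15 arrays TMEM100 was at 1.18 (limma adjusted p = 0.335), and the 3 pigs left out had its highest sedentary levels, 7.08, 7.10 and 8.92. The 13 probe sets then kept 82.0% to 112% of their log2 change. With the 28S/18S ratio in the fit, 3 probe sets passed: the 2 of cluster Ssc.4479 and another outside the 13. None of the 5 named genes passed then. Their limma adjusted p was 0.283 for NID2 and SERPINE2, 0.289 for SCG2, 0.369 for TFF2 and 0.317 for RBM17. The 13 kept 61.8% to 128% of their log2 change in that fit.

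**Figure D2:**
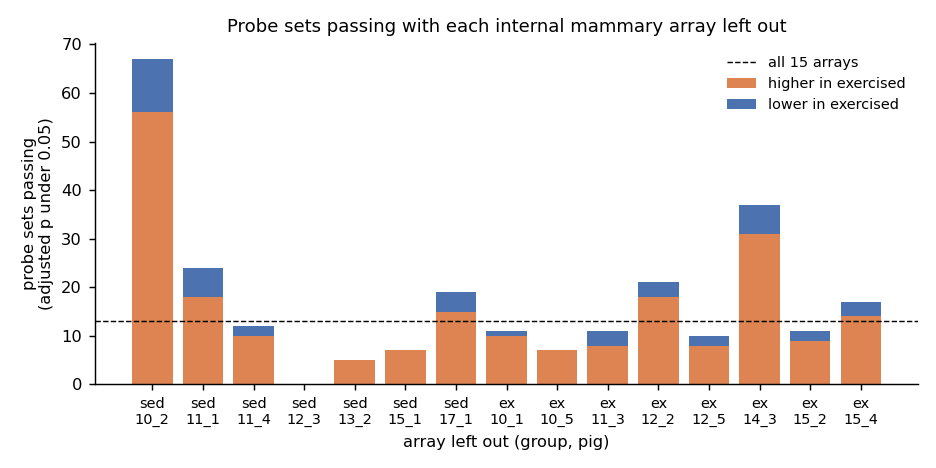
Number of probe sets passing an adjusted p under 0.05 when each pig is left out in turn, as stacked bars of probe sets higher and lower in exercised pigs; the dashed line marks the 13 that passed with all 15 arrays. The bars run from 0 without sedentary pig 12_3 to 67 without sedentary pig 10_2.

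Past the 13, many probe sets differed at the level of single tests. At an unadjusted p under 0.05, 1824 probe sets were higher (7.6%) and 1209 lower (5.04%) in exercised pigs. Without the 3 sedentary pigs of high VWF the excess of rises was gone, with 1426 higher (5.94%) and 1453 lower (6.05%), and without pig 12_3 it was 1640 (6.83%) and 1085 (4.52%). At an adjusted p under 0.10 there were 71, of which 58 were higher. None of the genes in the next 2 paragraphs passed the threshold of 0.05. They are the genes with a single symbol and the lowest p values in each direction.

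Among the rises, MSMB, beta-microseminoprotein, which is secreted and is known chiefly as a prostate product, was 5.31-fold higher (log2 2.41 ± 0.44, SE, limma adjusted p = 0.0575). Sedentary pigs lay at 7.72, 8.52 and 9.73 and exercised pigs at 9.51, 10.73 and 12.32 (lowest, median, highest), so that 7 of 8 trained pigs were above all sedentary pigs. MSMB was at 2.23 without the 3 sedentary pigs of high VWF and at 2.28 without pig 12_3. CAPSL, a calcyphosine-like protein, differed by 1.27 ± 0.25 (SE). FKBP1B, which binds ryanodine receptor calcium channels, differed by 0.77 ± 0.15 and was higher on its other probe set too. PIK3IP1, an inhibitor of PI3-kinase, differed by 0.70 ± 0.13. SULT1A3, a sulfotransferase of phenols and catecholamines, differed by 0.67 ± 0.13, with every exercised pig, at 9.70 to 10.22, above every sedentary pig, at 8.74 to 9.59. SCAP, which escorts the SREBP regulators of sterol synthesis, differed by 0.45 ± 0.09, and here too the groups did not overlap. AIF1L (0.58), LOC641352 (0.49), CLSTN1 (0.40), GPRC5A (0.39) and RNLS, or renalase (0.33), had log2 differences below 0.6. In all of these 8 of 8 exercised pigs were above the sedentary mean.

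Among the falls, HSPA8, the constitutive chaperone Hsc70, had the smallest p (log2 -0.47 ± 0.08, SE, limma adjusted p = 0.0564). Sedentary pigs lay at 12.36, 12.60 and 12.95 and exercised pigs at 11.93, 12.12 and 12.28, with no overlap. CCT6A, a subunit of the chaperonin that folds actin and tubulin, differed by -0.50 ± 0.12. It was at 11.15 in sedentary pig 12_3, and without that pig its difference was -0.38. DDX39A, an RNA helicase of mRNA export (-0.40), PRPF4B, a kinase of the spliceosome (-0.27), and LSM7, a subunit of the RNA ring on U6 small nuclear RNA (-0.27), act on RNA as RBM17 does. MRS2, a mitochondrial magnesium channel (-0.39), and ECSIT, an assembly factor of respiratory complex I (-0.20), are mitochondrial. GNAZ, a G protein subunit, was at -0.39, UBN1, of a histone chaperone complex, at -0.32, and C5H12orf45 at -0.57. PTPN1, a phosphatase of the insulin receptor (-0.28), OGT, which adds O-GlcNAc to proteins (-0.27), KANK3 (-0.49) and ROGDI (-0.26) each had other, dimmer probe sets of the opposite sign.

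Most of the larger falls came with high levels in the 3 sedentary pigs of high VWF. By group means, 27 probe sets were over 2-fold higher and 56 over 2-fold lower in exercised pigs, and without the 3 pigs the balance turned to 37 higher and 13 lower. Of the 56, 40 (71.4%) had the 3 pigs above the other 12 arrays, against 259 of all probe sets (1.08%). Over the 7 sedentary arrays, 42 of the 56 (75.0%) correlated with VWF at above 0.8, against 2.06% of all probe sets, a description over points that include the 3 pigs themselves. Of the 56, 6 remained over 2-fold lower, and the median log2 difference of the 56 moved from -1.26 to -0.22. The 56 were picked, and the 3 pigs singled out, on the same arrays, so these shares and shifts are in part built in. They describe the arrays and test nothing.

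Genes of this kind, most of them named after their values were seen, showed how far the 3 pigs stood apart. MMP7, a matrix metalloproteinase, was at 9.09, 12.26 and 11.54 in pigs 11_1, 13_2 and 15_1, at 4.07 to 5.14 in the other sedentary pigs and at 4.20 to 5.16 in exercised pigs. NR2F2, or COUP-TFII, a nuclear receptor that marks venous endothelium, was at 11.36, 11.27 and 11.60, against 9.14 to 9.63 and 8.76 to 10.02. SCG3, a granin like SCG2, was at 6.45, 7.55 and 7.61, against 4.43 to 4.76 and 4.32 to 4.88. In all 3 genes the other 4 sedentary pigs lay in or next to the exercised range. CLDN11, a tight junction protein, PLA1A, a phospholipase, OLR1, a receptor for oxidized LDL, GABRA4, a GABA receptor subunit, and ANGPT2, an angiopoietin, had the 3 pigs above the other 12 arrays as well. VWF differed by -2.14 ± 0.75 (SE, limma adjusted p = 0.235) with all arrays and by -0.38 without the 3 pigs, and its other 2, dimmer probe sets differed by 0.02 and -0.12. MMP7 went from -2.73 to 0.03, SCG3 from -1.20 to -0.08, NR2F2 from -0.88 to -0.01 and OLR1 from -1.22 to -0.24.

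Other values differed among the 3 pigs. Their mean smooth muscle marker levels were 12.79, 11.46 and 12.42, against 11.42 to 11.74 in the other sedentary pigs, and their 28S/18S ratios were 1.25, 1.12 and 1.23. Pig 11_1 was among the 8 sampled first, and the other two among the 7 sampled last. Pig 15_1 alone had a high mean of neutrophil and mast cell markers, 8.20 against 6.38 in the next sedentary pig. The part that these values have in the high VWF, MMP7 and NR2F2 was not tested. The vessel of each sample is known here from the labels alone, and whether these 3 scrapings came from the same kind of vessel as the other 12 was not tested, so their values bear the name internal mammary only as far as the labels hold.

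**Figure D3:**
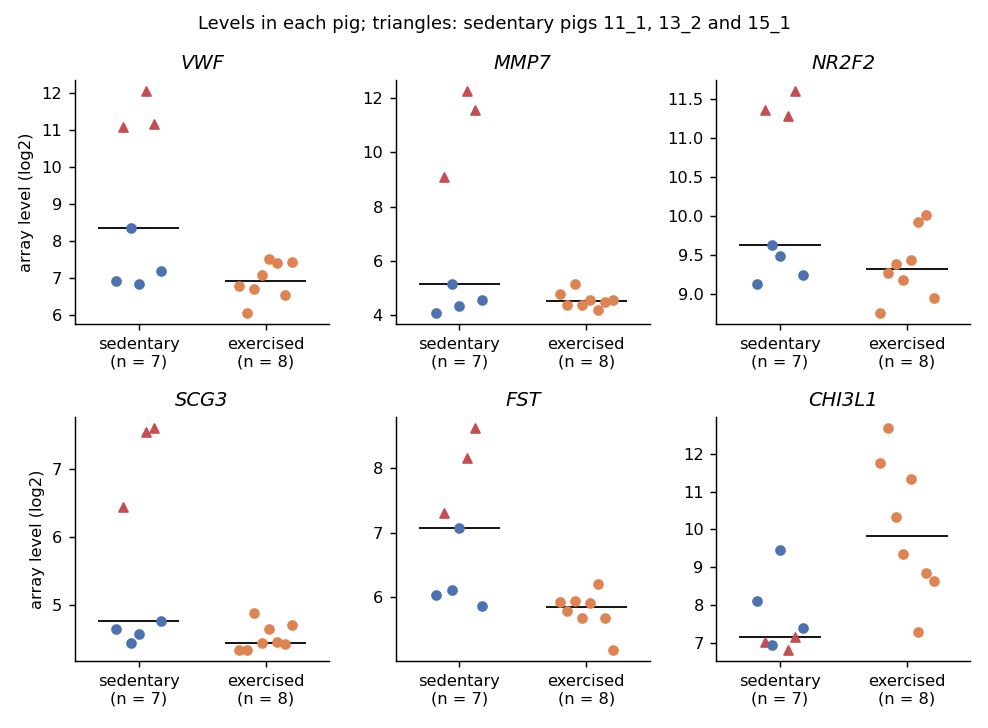
Log2 probe-set level of VWF, MMP7, NR2F2, SCG3, FST and CHI3L1 in each internal mammary array, by group; triangles are sedentary pigs 11_1, 13_2 and 15_1. The triangles lie above all other points for VWF, MMP7, NR2F2, SCG3 and FST, and in CHI3L1 they lie among the lowest.

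Genes were next grouped by function. A list is described by its members' counts at an unadjusted p under 0.05 and its median log2 difference. These stand beside 7.6% of all probe sets higher, 5.04% lower and a median over all probe sets of 0.0052. Counts without the 3 pigs of high VWF stand beside 5.94% higher and 6.05% lower, and counts without pig 12_3 beside 6.83% and 4.52%. No list member passed the adjusted threshold except SERPINE2, SCG2 and RBM17; NID2 and TFF2 are not in the lists described.

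Interferon response genes, which block viral replication and are switched on by interferons, stood higher in exercised pigs. Of 22 measured, 10 were higher at an unadjusted p under 0.05 and none lower, and the median was 0.39. IFI44L, a marker of interferon exposure, ran from 10.42 to 11.11 (median 10.84) in sedentary and 10.96 to 11.75 (median 11.29) in exercised pigs. Its difference was 0.55 ± 0.13 (SE, limma adjusted p = 0.104). MX1, a GTPase against RNA viruses, differed by 0.57 ± 0.15, XAF1, a pro-apoptotic protein, by 0.65 ± 0.23, and IRF9, a subunit of the interferon-activated transcription factor complex, by 0.42 ± 0.14. The list's median was 0.119 with the 28S/18S ratio in the fit. It was 0.555 in the 8 pigs sampled first, 0.175 in the 7 sampled last and 0.370 in the brachial artery. It was 0.490 without the 3 pigs of high VWF and 0.341 without pig 12_3, with 10 and 9 members higher.

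Antigen presentation genes of the swine leukocyte antigen (SLA) system, the pig's major histocompatibility complex, had 7 of 18 higher, none lower and a median of 0.197. The 4 with the smallest p belong to class II, which presents peptides to helper T cells: SLA-DMB (0.48 ± 0.13, SE), SLA-DOA (0.58 ± 0.16), SLA-DMA (0.41 ± 0.12) and SLA-DRA (0.34 ± 0.10). In SLA-DRA sedentary pigs ranged from 12.62 to 13.26 and exercised pigs from 13.04 to 13.61, an overlap of part of both groups. The list's median was 0.299 in the 8 pigs sampled first, 0.089 in the 7 sampled last and 0.0862 in the brachial artery. It was 0.138 without the 3 pigs of high VWF, with 6 higher, and 0.211 without pig 12_3, with 8 higher. Macrophages and B cells express class II as well. Macrophage markers had 1 of 11 higher, with a list median of -0.04 and mean levels of 8.23 to 9.01 in exercised and 8.35 to 9.20 in sedentary pigs. B cell markers, of which only 3 were measured, had 1 higher and none lower. Their median was 0.122, and -0.160 in the brachial artery. Their mean levels were 6.91 to 8.03 in exercised and 6.45 to 7.51 in sedentary pigs. The 1 higher was CD79B, a subunit of the B cell receptor, at 5.62 to 7.96 in sedentary and 7.14 to 9.50 in exercised pigs (1.46 ± 0.38, SE, limma adjusted p = 0.137). T and NK cell markers had 2 of 13 higher, among them CD247, the zeta chain of the T cell receptor (0.76 ± 0.23), of whose 3 dimmer probe sets 1 had the opposite sign (-0.02). The part of B and T cells in the SLA difference was not tested.

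Cell cycle and replication genes had 12 of 21 higher, none lower and a median of 0.280. MCM2 and MCM3, subunits of the replicative helicase, differed by 0.52 ± 0.13 (SE) and 0.32 ± 0.09. PLK1, a kinase of mitosis, differed by 0.28 ± 0.07. TOP2A, the topoisomerase of dividing cells, ran from 5.10 to 6.82 (median 5.93) in sedentary and 6.30 to 8.03 (median 7.06) in exercised pigs, a difference of 1.07 ± 0.29 (SE, limma adjusted p = 0.141). These genes were dim, with mean levels for the list of 6.28 to 6.64 in sedentary and 6.50 to 7.21 in exercised pigs. Their median was 0.369 in the 8 pigs sampled first and 0.0568 in the 7 sampled last. In the brachial artery the median was 0.0728. Without the 3 pigs of high VWF it was 0.212, with 10 higher, and without pig 12_3 it was 0.277, with 12 higher.

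Of 9 clock genes, which form the feedback loop that sets daily rhythms, 3 were higher and 1 lower, and the median was 0.163. DBP, a transcription factor driven by the clock, lay at 8.51, 9.28 and 9.75 in sedentary and 9.76, 9.97 and 10.58 in exercised pigs (1.00 ± 0.21, SE, limma adjusted p = 0.0944). Every exercised pig was above every sedentary pig, though the nearest pair was almost level. USP2, a ubiquitin protease with a clock-driven level, differed by 1.11 ± 0.25, and CRY2, a repressor of the loop, by 0.44 ± 0.19. ARNTL, or BMAL1, the activator that peaks in the opposite phase to DBP, was lower by 1.52 on the log2 scale (-1.52 ± 0.41, SE, limma adjusted p = 0.141). Without the 3 pigs of high VWF, 2 of which had the highest ARNTL levels (9.59 and 9.67), it was -0.86. No hour of sampling is given in the sources used here, and its part in these values was not tested.

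Chaperones, splicing factors and subunits of oxidative phosphorylation stood mostly lower, by small amounts. Of 43 heat shock and chaperone genes 13 were lower and 1 higher, and the median was -0.141. HSPH1, a co-chaperone of the HSP110 family, ran from 10.21 to 11.72 in sedentary and 9.62 to 10.14 in exercised pigs (-0.62 ± 0.18, SE, limma adjusted p = 0.174). TCP1, a chaperonin subunit like CCT6A, differed by -0.31 ± 0.09. The highest value of both came from pig 12_3, at 11.72 for HSPH1 and 11.61 for TCP1. Without it the list's median was -0.06, with 11 lower and 3 higher. Without the 3 pigs of high VWF it was -0.199, with 14 lower and none higher. In the brachial artery the chaperone median was -0.156.

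Of 38 splicing factors and RNA helicases, 10 were lower, none higher, and the median was -0.09. Besides RBM17 and DDX39A, these included HNRNPA2B1, an RNA-binding protein of the nucleus (-0.20 ± 0.06, SE), and SRSF7, a serine-arginine splicing factor (-0.26 ± 0.09). The list's median was -0.0715 without pig 12_3, with 9 lower, and -0.131 without the 3 pigs of high VWF, with 12 lower. In the brachial artery it was -0.115. Of 59 oxidative phosphorylation genes, 9 were lower and 1 higher, with a median of -0.06. ATP5J, a subunit of ATP synthase, was the lowest (-0.52 ± 0.13, SE, limma adjusted p = 0.122, with 0.04 on a much dimmer second probe set), NDUFB10 of complex I was at -0.16 and COX7A1 of complex IV at -0.23. NDUFA12, also of complex I, was higher by 0.25 ± 0.07, so the subunits did not all move one way. The oxidative phosphorylation median was -0.0564 without pig 12_3, with 5 lower, and -0.0866 without the 3 pigs of high VWF, with 11 lower. In the brachial artery it was -0.00762. Ribosomal proteins had 3 of 56 lower and a median of -0.03.

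**Figure D4:**
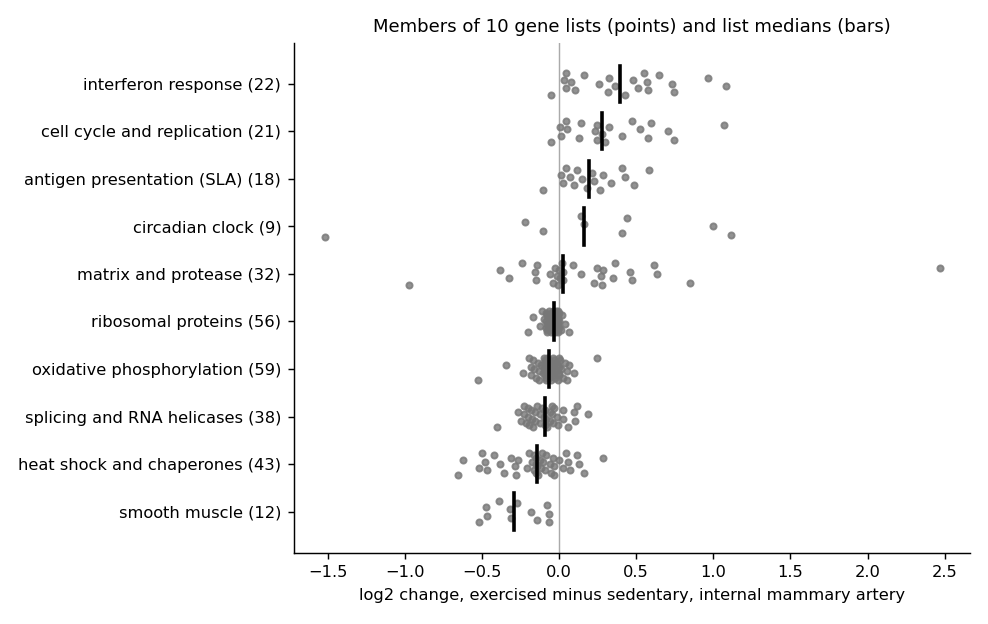
Log2 difference between exercised and sedentary pigs for each measured member (points) of 10 gene lists, with the list's median as a bar; values above 0 are higher in exercised pigs. Interferon (0.39), cell cycle (0.280) and SLA (0.197) medians lie above 0, and the smooth muscle (-0.29) and chaperone (-0.141) medians below it.

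Around SERPINE2, 17 genes of plasminogen and thrombin control were measured, of which 3 were higher and 1 lower. PLAT, tissue plasminogen activator, which SERPINE2 inhibits, ran from 9.51 to 10.87 in sedentary and 9.85 to 11.38 in exercised pigs (0.52 ± 0.24, SE, limma adjusted p = 0.392). TFPI2, another protease inhibitor, differed by 0.35 ± 0.13 and VWF was the 1 lower. Around SCG2, 11 genes of dense-core secretion were measured, of which 3 were higher and 1 lower. PCSK1N, an inhibitor of the convertase that cuts granins, differed by 0.44 ± 0.12 and CHGB, chromogranin B, by 0.16 ± 0.06, while SCG3 was lower through the 3 pigs named above. Of the granins, SCG2 alone was higher by over 1 on the log2 scale. SCG3 was at -1.20, and at -0.08 without the 3 pigs.

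Matrix and protease genes had 7 of 32 higher and 2 lower, with a median of 0.03. CHI3L1, a chitinase-like glycoprotein of macrophages and remodelling tissue, ranged widely, at 6.81, 7.15 and 9.46 in sedentary and 7.29, 9.83 and 12.67 in exercised pigs (2.47 ± 0.69, SE, limma adjusted p = 0.155). LGALS3, galectin-3, a sugar-binding protein, was at 9.81 to 11.00 and 10.56 to 11.90 (0.85 ± 0.21). COL8A1, a short-chain collagen of vessel wall, differed by 0.47 ± 0.12 and TIMP3, an inhibitor of metalloproteinases, by 0.62 ± 0.19. All 4 were higher on each of their probe sets. Without the 3 pigs of high VWF 0 matrix genes were lower and 7 higher at an unadjusted p under 0.05, beside 6.05% and 5.94% of all probe sets.

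Of 23 activin, follistatin and BMP genes, which belong to the TGF-beta family and its antagonists, 5 were lower and 1 higher. FST, follistatin, which binds activin, lay at 5.86, 7.07 and 8.62 in sedentary and 5.18, 5.85 and 6.21 in exercised pigs (-1.23 ± 0.36, SE, limma adjusted p = 0.174). The 3 pigs of high VWF were its 3 highest, at 7.31, 8.16 and 8.62, and without them the difference was -0.48. SMAD4, the shared signal carrier of the family, differed by -0.17 ± 0.05, ENG, a co-receptor of endothelium, by -0.51 ± 0.16 and ID3, a BMP target gene, by -0.29 ± 0.09. ID3 kept a difference of -0.28 without the 3 pigs, and ENG one of -0.29.

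Of the 23 measured genes of vascular tone, redox state and inflammation taken as a fixed set, none passed (limma), while 1 was higher and 3 lower at an unadjusted p under 0.05. NOS3, the endothelial nitric oxide synthase, had a median of 12.49 in sedentary and 12.52 in exercised pigs, with ranges of 12.02 to 12.77 and 12.29 to 12.78, and the groups overlapped nearly whole. Its difference was 0.08 ± 0.11 (SE). EDN1, the constrictor endothelin-1, differed by -0.14 ± 0.29. PTGS1, which makes the precursor of prostacyclin, ran from 10.98 to 12.53 in sedentary and 12.18 to 12.86 in exercised pigs (0.54 ± 0.17, SE, limma adjusted p = 0.208). The 3 lower were VWF, SELE, the adhesion receptor E-selectin (-0.71 ± 0.28), and CCL2, the chemokine that draws monocytes (-1.24 ± 0.50). In CCL2 the ranges of 7.03 to 10.88 and 6.70 to 9.19 shared most of their length. Without the 3 pigs of high VWF, which leaves 4 sedentary arrays, none of the 3 genes had an unadjusted p under 0.05. VWF was then at -0.38 and CCL2 at -0.97, while SELE, at -0.69, hardly moved. Without pig 12_3, the highest of the sedentary pigs for both, SELE was at -0.47 (limma unadjusted p = 0.0376) and CCL2 at -0.94 (limma unadjusted p = 0.0593).

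The antioxidant enzymes in that set did not pass either. SOD1, the cytosolic superoxide dismutase, differed by 0.07 ± 0.08 (SE), SOD3, the extracellular form, by 0.01 ± 0.13 and CAT, catalase, by 0.22 ± 0.12. Without pig 12_3, the lowest of the sedentary pigs for it, CAT differed by 0.12. SOD2, the mitochondrial form, differed by -0.57 ± 0.29, and by -0.26 without pig 12_3, in which it stood at 12.44. In the wider list of 29 antioxidant genes, 4 were higher and 1 lower, among them PRDX5, a mitochondrial peroxiredoxin, at 10.12 to 10.92 in sedentary and 10.67 to 11.41 in exercised pigs (0.50 ± 0.14). GPX4, a lipid peroxide reductase, was the 1 lower (-0.17 ± 0.05). Without the 3 pigs of high VWF, 2 of the 29 were higher and 3 lower, and the list's median went from 0.0650 to 0.00014. Without pig 12_3, 4 were higher and 1 lower. Of 8 NADPH oxidase genes none was higher or lower, and of 14 shear-responsive factors 1 was lower.

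The remaining lists were small or mixed. The nitric oxide and vasodilator list had 1 of 18 higher, PTGS1, and 2 lower, among them ADM. In the vasoconstrictor list 2 of 12 were higher: ADRA2A, an adrenergic receptor, at 6.78 to 7.64 in sedentary and 7.32 to 8.27 in exercised pigs (0.72 ± 0.15, SE, limma adjusted p = 0.0944), and ECE1, which activates endothelin (0.54 ± 0.16). Angiogenic and hypoxia genes had 3 of 21 higher and 3 lower. EPOR, the erythropoietin receptor, differed by 0.87 ± 0.20, CA9, a hypoxia-induced carbonic anhydrase, by 0.45 ± 0.12 and FGF2 by 0.44 ± 0.17. ADM, the vasodilator adrenomedullin, was at -0.96 ± 0.31, and at -0.30 without the 3 pigs of high VWF. Positional factors had 1 of 12 higher, HOXD8 (0.40 ± 0.10), and 3 lower, among them NR2F1 (-1.08 ± 0.27, and -0.51 without the 3 pigs) and NR2F2. Genes of mitochondrial biogenesis had 3 of 19 higher, among them SIRT3, a mitochondrial deacetylase (0.42 ± 0.10), and 2 lower, among them MTFR1 (-0.53 ± 0.14). In cholesterol synthesis and uptake 2 of 12 were higher and 1 lower, with CYP51, lanosterol demethylase, at 0.30 ± 0.08. Leukocyte adhesion genes had 2 of 27 higher, among them IL15 (0.44 ± 0.14), and 3 lower, among them CCL8 (-1.20 ± 0.34).

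Markers of other cells bear on how alike the scrapings were. Endothelial markers had 1 of 14 higher, the junction gene CLDN5 (0.43 ± 0.13, SE), 2 lower, VWF and ENG, and a median of 0.03. All 12 smooth muscle markers were lower in exercised pigs by their means, none at an unadjusted p under 0.05, with a median of -0.29. Their mean levels overlapped, at 11.07 to 12.58 in exercised and 11.42 to 12.79 in sedentary pigs. The smooth muscle median was -0.588 in the 8 pigs sampled first, 0.0039 in the 7 sampled last and -0.015 without the 3 pigs of high VWF. With the mean smooth muscle level in the fit 18 probe sets passed, 11 of them among the 13. Neutrophil and mast cell markers had a median of -0.55, and 0.0818 without the 3 pigs. Lists for fibroblasts (9 measured), adipocytes (12), erythroid cells (5), platelets (4), skeletal muscle (8) and lymphatic endothelium (3) had no member past an unadjusted p of 0.05, and Schwann and neural markers had 1 of 7 higher.

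The brachial arrays of 14 of these pigs show the same genes in a second artery. Fitted alone, 122 probe sets passed there (0.508%) and 3229 had an unadjusted p under 0.05 (13.5%). All 13 that passed in the internal mammary artery had the same sign and an unadjusted p under 0.05 in the brachial artery, and 7 passed. The pigs are shared, so the second artery is not a separate set of animals. SERPINE2 was at 2.02 ± 0.21 (SE) there, SCG2 at 1.97 ± 0.31, NID2 at 0.63 ± 0.14, RBM17 at -0.21 ± 0.07 and TFF2 at 0.33 ± 0.09. MSMB, which missed the threshold in the internal mammary artery, was at 3.18 ± 0.53 and passed there (limma adjusted p = 0.0218).

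No probe set was called for a training effect that differed between the arteries, which does not show that the effects were equal. For the difference of the effects 0 of 23999 passed (0%, limma with the pig as a random block). In that fit 1035 had an unadjusted p under 0.05, and the lowest limma adjusted p was 0.227. Of the 5 named genes that passed, TFF2 had the lowest p for this difference, 0.35 ± 0.13 (SE) more in the internal mammary artery (limma unadjusted p = 0.0116). SCG2 differed by 0.67 ± 0.43 and NID2 by 0.01 ± 0.14. For TOP2A the change was 1.07 in the internal mammary and 0.06 in the brachial artery, and for CD247 0.76 and 0.14, but with 0 probe sets passing such pairs are not shown to differ. With all 29 arrays and the pig as a random block, the training effect in the internal mammary artery had 143 passing probe sets, 110 higher and 33 lower, which held all 13.

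**Figure D5:**
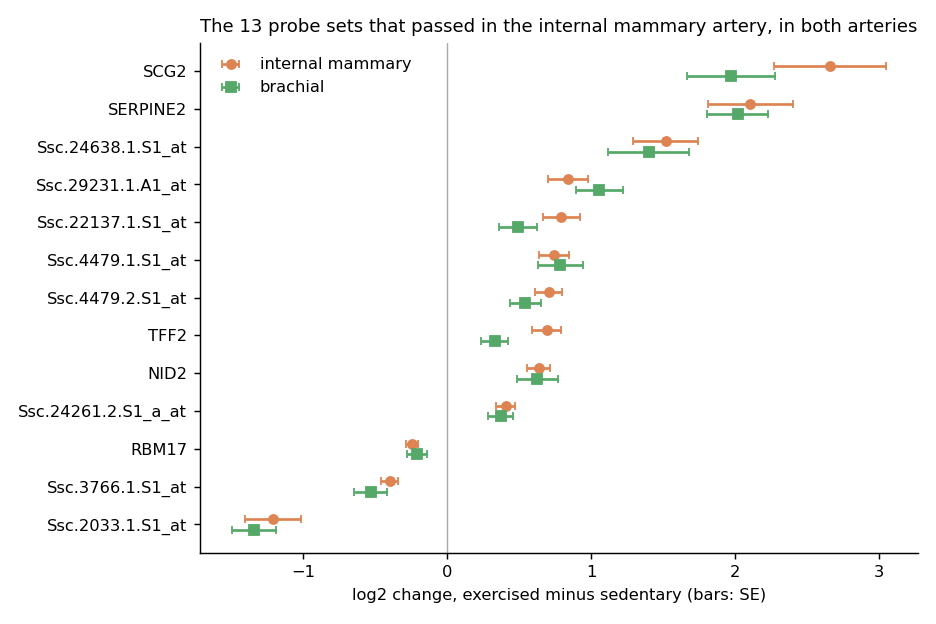
Log2 difference between exercised and sedentary pigs, with its standard error, for the 13 probe sets that passed in the internal mammary artery, in that artery and in the brachial artery. Each of the 13 lies on the same side of 0 in both arteries, and for TFF2 the brachial value, 0.33, is below the internal mammary value of 0.69.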

How the data were processed

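Pig artery scrapings were hybridised to single-colour porcine arrays after oligo(dT)-primed amplification, per the labels' protocols. The authors deposited log2 probe-set intensities, which were used as given. The submitters' processing notes name affy without a version, and the summary and normalization steps are not given in the sources used here. The number of arrays limits the precision.

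Of 24123 probe sets, 124 controls were left out and 23999 tested with limma 3.58.1 in R 4.3.3 (lmFit and eBayes on the 15 internal mammary arrays, tested on simulated data). The platform annotation gave 1 symbol for 10069 probe sets, several for 198 and none for 13732. Named genes are those passing, the 15 rises and 15 falls of smallest p, up to 4 members of each list by smallest p (on the probe set of highest mean level), and a fixed vascular set. TMEM100, MMP7, CLDN11, PLA1A, OLR1, GABRA4 and the list markers given as a check of the tissue fall outside this rule. TOP2A and CD247, set beside the brachial artery, were picked from the lists. The comparison, the members and the gene lists were chosen with earlier results of these data known. Alternatives covered covariates, normalization, filters, weights, the pig as replicate block and leaving out pigs. Leaving out the 3 sedentary pigs of high VWF, and list medians under these alternatives, were added after seeing the data.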

Additional observations from a re-analysis of the deposited data

Results flagged for a closer look

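Within groups of 7 sedentary or 8 exercised arrays, 23 of 310 groups of values had a highest or lowest array far from the rest by Dixon's ratio of gap to range. Chance gives about 1 in 20 such groups. Sedentary pig 12_3 was the array in 10 of them. It was the highest for SOD2 (12.44), HSPH1 (11.72), TCP1 (11.61), CCT6A (11.15), PRPF4B (10.67) and ROGDI (10.42), and for the mean levels of chaperones (11.44) and antioxidant enzymes (9.94). It was the lowest for CAT (11.17) and TFPI2 (10.01). Sedentary pig 11_1 was the lowest for the probe set Ssc.4479.2.S1_at (8.28), for CLDN5 (11.56) and for the mean SLA level (11.51). Sedentary pig 15_1 was the highest for neutrophil and mast cell markers (8.20) and for lymphatic markers (6.11).

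Among exercised pigs, 10_1 was the highest for SELE (5.74) and 12_2 the lowest for PCSK1N (9.12) and for ribosomal proteins (13.10). Pig 14_3 was the highest for CLDN11 (6.97) and for the vasoconstrictor list (8.33). Pig 12_5 was the highest for mitochondrial biogenesis genes (8.68). Pig 15_4 was the lowest for the activin and BMP list (8.67) and had the highest total RNA label value, 340.9.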

How the results depend on the processing

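The 13 probe sets kept their sign in all 30 settings in which they were tested, 12 of them where the dimmest 33.3% were left out. In the 12 whose groups did not overlap, leaving out pigs could not turn the sign. All 13 were also picked on these same arrays, so the kept sign is in part built in. The number passing among all probe sets tested was 25 with period of collection as a factor. It was 27 without those dimmest ones, 27 with arrayWeights, 3 with the 28S/18S ratio and 4 without the 3 sedentary pigs of high VWF. It was 0 in the 8 pigs sampled first alone and 0 in the 7 sampled last alone. Of the 13 themselves, 13, 12, 12, 2, 2, 0 and 0 passed in these settings, in the same order. Leaving out 1 pig gave 0 to 67. The replicate block, with all 29 arrays and the pig as a random block, gave 143; the number of probe sets whose effect differed between arteries was 0 with it and 0 with no replicate block. Exercised and sedentary pigs are different animals, so within this artery nothing is paired. The number passing was 14 with day of collection, 18 with smooth muscle, 13 with macrophage level, 11 with the 3′ to 5′ controls, 11 with median centring, 15 with quantile normalization and 17 with a trended, robust prior. Medians that moved by over 1 SD were interferon (0.119 with the 28S/18S ratio, 0.175 in the last 7), mitochondrial biogenesis (0.0706 with that ratio, -0.0376 in the first 8), activin and BMP (-0.121 in the first 8), T and NK cells (-0.0962 in the last 7) and cell cycle (0.0568 in the last 7). Signs turned for EDN1 (0.29 with the 28S/18S ratio, and -0.331 to 0.0712 on leaving out 1 pig, positive without sedentary pig 12_3), NOS3 (-0.0134 with smooth muscle, -0.10 without the 3 pigs), and, without the 3 pigs, MMP7 (0.0318), CLDN11 (0.69), PLA1A (0.37) and GABRA4 (0.00102). The cause was not tested. Of the values of 112 genes and probe sets under other settings, 3153 kept their side of the threshold, 116 lost a call and 71 gained one. Only the 13 that passed could lose a call, and most of the 3153 had none to lose. Summary and background steps of the arrays were not varied.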
